A study of Mus musculus with 6 samples.

Results

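The enzymes that attach isoprenoid lipids to proteins, and those that process the modified ends, were followed as transcripts in aged mouse muscle after feeding with farnesol. The group held 10 genes, taken by symbol from 23238 distinct symbols in the count tables, by a rule that names symbols and sets no threshold on measured values: Fnta, Fntb, Pggt1b, Rabggta, Rabggtb, Chm, Rce1, Zmpste24, Icmt and Ggps1. All 10 were listed once counts of equal symbols were summed, and all 10 were among the 11674 genes that passed the filter on low counts. The samples were gastrocnemius muscles, the large calf muscle, of 26-month-old mice of genotype C57/BL6J WT. Of the 6 libraries, 3 came from mice given vehicle by mouth (5% DMSO in saline with 0.85% NaCl) and 3 from mice given farnesol at 350 mg/kg by mouth, both for 30 days. The same 5% DMSO and 0.85% NaCl are recorded for the farnesol libraries. The labels call the libraries biological replicates but do not say that each is a separate mouse, and a p-value below therefore speaks of library-to-library spread, which may be technical. Farnesol is the free alcohol of the farnesyl group, and the study's title names enhanced farnesylation of the Parkin-interacting substrate.

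Prenylation anchors proteins to membranes through a farnesyl or geranylgeranyl group on a cysteine near the carboxyl end. Farnesyltransferase and geranylgeranyl transferase I recognise a CAAX ending, a cysteine followed by mostly aliphatic residues and a variable last residue, and share their alpha subunit. Rab proteins are modified by a separate geranylgeranyl transferase, which needs an escort protein to present the Rab. After prenylation of a CAAX protein the last residues are cut off and the exposed prenylcysteine is methylated, steps known in muscle and other tissues for their part in the maturation of lamins and Ras proteins.

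Libraries held 9895700 to 12707751 counts, and the 10 genes together took 1926 to 2644 counts in a library. CPM here means counts scaled to a common library size, with sizes adjusted by trimmed means (TMM). The muscle markers Acta1, Ckm, Myh4, Tnnt3, Myh1 and Des summed to 91360 to 135615 CPM in vehicle and 115336 to 123560 CPM in farnesol libraries. Markers of other cell types were present in both groups. Adipocyte markers (6 of 6 higher in farnesol by fold, 0 of 6 past an adjusted p of 0.05 in edgeR) summed to 1479 to 1937 CPM in vehicle and 1642 to 2305 CPM in farnesol libraries, and macrophage markers (0 of 6 higher, 0 of 6 past the threshold) to 78.2 to 191 and 96.8 to 130 CPM. Car3 alone made up most of the adipocyte sum, at 1302 to 2060 CPM over the 6 libraries. The sum therefore mostly reflects Car3, whose cell of origin in whole muscle was not tested, and is no measure of adipocyte content. Of the other adipocyte markers Plin1, Lep and Cidec were 2.44-fold, 2.04-fold and 1.84-fold as abundant after farnesol, with fully separated groups, and did not pass the threshold. Adipoq (1.37-fold) and Fabp4 (1.18-fold) overlapped between the groups. In the other lists Hbb-bs (1.85-fold) and Mbp (1.45-fold) were also fully separated upward and Adgre1 (0.487-fold) downward. Over all tested genes 4.75% were separated upward and 4.07% downward. Erythroid markers (4 of 4 higher, 0 of 4 past the threshold) summed to 3449 to 5590 and 5387 to 9593 CPM. Endothelial (71.3 to 106 and 77.2 to 96.2 CPM), fibroblast (827 to 1033 and 889 to 1040 CPM), satellite cell (16.0 to 19.9 and 14.1 to 18.9 CPM) and Schwann cell markers (38.8 to 58.9 and 56.2 to 70.5 CPM; 4 of 4 higher, 0 of 4 past the threshold) overlapped in range between vehicle and farnesol libraries. Farnesol replicate 1 stood apart: the ribosomal RNA precursor Rn45s took 4.97% of its counts against 9.92% to 15.4% elsewhere, and its deviations correlated across genes with transcript length at a Spearman coefficient of −0.24, against 0.02 to 0.10 in the other libraries. The part of cell makeup and of this library in the values below was not tested beyond the fits that leave a library out. In whole muscle, fewer cells of a type and less RNA per cell cannot be told apart.

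No member passed the test between farnesol and vehicle. In edgeR's quasi-likelihood test with Benjamini-Hochberg adjustment over 11674 genes, 0 of the 10 members had an adjusted p under 0.05, where 0 of all genes (0%) did. At an unadjusted p under 0.05 the count of members was also 0, against 351 genes (3.01%) over the whole table. DESeq2 and limma-voom each called 0 members at an adjusted p of 0.05 and had 0 members at an unadjusted p under 0.05. Of the 10 members, 6 had a fold above 1 and 4 a fold below it, and the median log2 fold change was 0.02, against −0.01 over all genes tested, of which 49.1% lay above 0. Every member had an edgeR adjusted p of 1.0, and the smallest unadjusted p was 0.157, for Pggt1b. The groups were fully separated in 3 of the 10 members (1 higher and 2 lower after farnesol), against 8.82% of all tested genes.

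**Figure D1:**
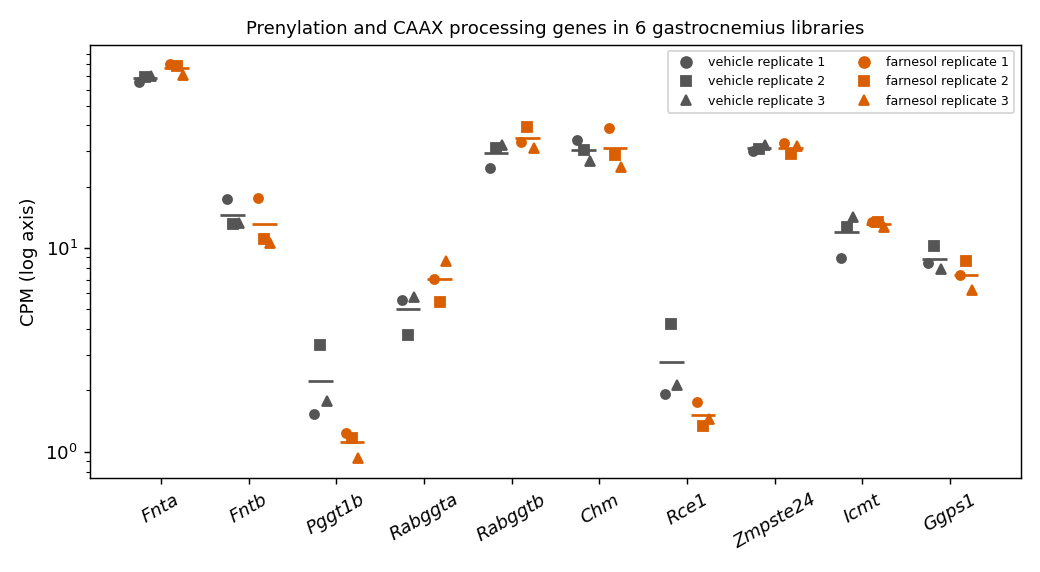
CPM of each gene (log axis) in the 6 libraries; grey marks vehicle, orange marks farnesol, symbol shape gives the replicate number and horizontal bars are group means of 3 libraries. The 3 farnesol values lie above the 3 vehicle values for Fnta, and below them for Pggt1b and Rce1.

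Levels of the 10 genes were ordered by CPM per kilobase of the longest annotated transcript. Fnta had the highest level at 37.4 ± 2.95 CPM per kilobase (SD, n = 6 libraries), followed by Rabggtb at 16.0 ± 2.36. On this scale these 2 did not overlap each other or any other member over the 6 libraries. Zmpste24 (7.84 ± 0.357 CPM per kilobase), Chm (6.27 ± 1.03) and Fntb (5.30 ± 1.15) came next, and the neighbours in that order overlapped in range. Icmt, Rabggta, Ggps1 and Rce1 followed at 2.54, 2.09, 1.91 and 1.47 CPM per kilobase, again with overlapping neighbours. Pggt1b was lowest at 0.223 ± 0.117 CPM per kilobase, below the range of every other member. Among tested genes with a length, Fnta lay at the 91.1 percentile of this level and Pggt1b at the 2.04 percentile. The library kit reads a tag near the transcript's 3′ end, so division by length can misplace long transcripts such as that of Pggt1b (7477 bases against 1455 to 4950 bases for the other members). Before division by length, Pggt1b also had the lowest mean, at 1.66 CPM over the 6 libraries, next to Rce1 at 2.14 CPM. On that scale the 0.929 to 3.34 CPM of Pggt1b overlapped the 1.34 to 4.25 CPM of Rce1. Fnta stayed above every other member on the CPM scale. The place of Rabggtb depended on the division as well. Its 24.6 to 39.3 CPM overlapped the 28.9 to 32.7 CPM of Zmpste24 and the 25.1 to 38.8 CPM of Chm. The mean of Rabggta (6.04 CPM) lay below that of Ggps1 (8.13 CPM), the reverse of their order per kilobase.

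Fnta (chromosome 8, 25998722 to 26015650, mm10) encodes the alpha subunit shared by farnesyltransferase and geranylgeranyl transferase I. It was measured at 65.6, 69.0 and 69.6 CPM in vehicle replicates 1 to 3 and at 79.8, 78.6 and 70.5 CPM in farnesol replicates 1 to 3. All 3 farnesol libraries lay above all 3 vehicle libraries, with farnesol replicate 3 close to the vehicle range; 4.75% of all tested genes were separated in this direction. The fold was 1.12 (95% interval 0.897 to 1.40; log2 fold change 0.16, SE 0.16). With a mean of 786 counts per library this was the most deeply measured member, and its interval left no room for a fold above 1.5 in either direction.

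Fntb (chromosome 12, 76765589 to 76921412) encodes the beta subunit of farnesyltransferase, which carries the catalytic zinc and binds the farnesyl donor. It stood at 17.4, 13.1 and 13.3 CPM in the vehicle libraries and at 17.6, 11.1 and 10.6 CPM in the farnesol libraries. The groups overlapped, and the highest library of each group was its replicate 1. The log2 fold change of −0.15 (SE 0.26) corresponded to a fold of 0.902 (0.618 to 1.32), and it ran from −0.42 without farnesol replicate 1 to −0.01 without vehicle replicate 1. The annotated gene starts with exons shared with its same-strand neighbour Churc1 (257 bases), far from its 3′ end.

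Pggt1b (chromosome 18, 46235351 to 46280993) encodes the beta subunit of geranylgeranyl transferase I and thus the partner that gives the shared alpha subunit its other specificity. It was counted 16, 33 and 21 times in vehicle replicates 1 to 3 and 14, 14 and 9 times in farnesol replicates 1 to 3, or 1.53, 3.34 and 1.78 CPM against 1.23, 1.17 and 0.929 CPM. Every farnesol library lay below every vehicle library, as for 4.07% of all tested genes, and vehicle replicate 2 held the highest value. The fold was 0.506, with a wide 95% interval of 0.193 to 1.33 (log2 fold change −0.98, SE 0.67; edgeR adjusted p = 1.0). Without vehicle replicate 2 the log2 fold change was −0.57. Counting alone allowed 22.7 to 46.3 counts for the 33 counts of vehicle replicate 2 and 9.15 to 26.0 for the 16 counts of vehicle replicate 1 (exact Poisson 95% intervals, which cover counting error only).

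The Rab branch was represented by 3 of the 10 genes. Rabggta (chromosome 14, 55715416 to 55722263), the alpha subunit of Rab geranylgeranyl transferase, stood at 5.56, 3.74 and 5.76 CPM in vehicle and at 7.05, 5.44 and 8.67 CPM in farnesol libraries. Farnesol replicate 2 lay inside the vehicle range, so the groups overlapped, and vehicle replicate 2 was the lowest library. Its log2 fold change of 0.48 (SE 0.35) was the highest among the 10 genes, or 1.40-fold (0.841 to 2.32), on an average of 65.3 counts. It was 0.31 without vehicle replicate 2 and also 0.31 without farnesol replicate 3.

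Rabggtb (chromosome 3, 153907287 to 153913009), the catalytic beta subunit of the same enzyme, stood at 24.6, 31.1 and 32.1 CPM in vehicle and at 33.3, 39.3 and 31.0 CPM in farnesol libraries. Farnesol replicates 1 and 2 lay above the vehicle range and farnesol replicate 3 inside it. The fold was 1.18 (0.892 to 1.56), with a log2 fold change of 0.24 (SE 0.19), which was 0.13 without vehicle replicate 1 or without farnesol replicate 2. The small nucleolar RNAs Snord45b and Snord45c lie within annotated exons of Rabggtb on the same strand, over 71 and 80 bases.

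Chm (chromosome X, 113040593 to 113185517) encodes the Rab escort protein whose loss causes choroideremia in people. It stood at 33.7, 30.3 and 26.7 CPM in vehicle and at 38.8, 28.7 and 25.1 CPM in farnesol libraries, and the farnesol values spanned the vehicle range on both sides. The fold was 1.02 (0.761 to 1.37; log2 fold change 0.03, SE 0.20). Its log2 fold change was −0.17 without farnesol replicate 1, the library that held the highest value, and 0.16 without farnesol replicate 3, which held the lowest.

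Among the CAAX processing enzymes, Rce1 (chromosome 19, 4622591 to 4625641), the membrane protease that removes the last residues after prenylation, was counted 20, 42 and 25 times in vehicle and 20, 16 and 14 times in farnesol libraries. On the CPM scale these were 1.92, 4.25 and 2.12 against 1.76, 1.34 and 1.44. The farnesol values all lay below the vehicle values, but the gap between farnesol replicate 1 and vehicle replicate 1 was narrow and the counts in these 2 libraries were equal. The fold was 0.552 (0.234 to 1.30; log2 fold change −0.86, SE 0.60; edgeR adjusted p = 1.0). Vehicle replicate 2 again held the highest value, and without it the log2 fold change was −0.41.

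Zmpste24 (chromosome 4, 121059237 to 121098241), the zinc metalloprotease that cleaves farnesylated prelamin A, had the smallest spread over the 6 libraries relative to its mean among the 10 genes. It stood at 30.0, 30.6 and 31.9 CPM in vehicle and at 32.7, 28.9 and 31.7 CPM in farnesol libraries. The 2 groups covered almost the same range. Its fold was 1.01 (0.772 to 1.32; log2 fold change 0.01, SE 0.19). Its coefficient of variation between vehicle libraries was 3.25%, below the 5.50% that counting alone gives at this depth. Between farnesol libraries it was 6.37%, above the 5.42% of counting. The small nucleolar RNA Gm26186 overlaps annotated exons of Zmpste24 on the same strand over 125 bases, far from its 3′ end.

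Icmt (chromosome 4, 152297227 to 152307121), the methyltransferase of the exposed prenylcysteine, stood at 8.92, 12.8 and 14.2 CPM in vehicle and at 13.4, 13.4 and 12.7 CPM in farnesol libraries. The farnesol libraries were close together, while vehicle replicate 1 was low and vehicle replicate 3 the highest of the 6. The fold was 1.10 (0.758 to 1.60; log2 fold change 0.14, SE 0.26). The last 103 bases of Icmt overlap the last exon of Rnf207 on the opposite strand (152307019 to 152307121), where a 3′ tag would fall, and strand handling is not given in the sources used here. Rnf207 was measured at 7.38, 6.88 and 10.4 CPM in vehicle and at 10.4, 10.8 and 9.08 CPM in farnesol libraries, so the counts of these 2 genes may not be fully separate.

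Ggps1 (chromosome 13, 14050659 to 14063488) makes geranylgeranyl diphosphate, the donor for both geranylgeranyl transferases, by adding an isoprene unit to farnesyl diphosphate. It stood at 8.44, 10.2 and 7.88 CPM in vehicle and at 7.40, 8.62 and 6.19 CPM in farnesol libraries. Farnesol replicate 2 lay within the vehicle range and the other farnesol libraries below it. The fold was 0.840 (0.543 to 1.30; log2 fold change −0.25, SE 0.30). The log2 fold change was −0.14 without vehicle replicate 2 or farnesol replicate 3, and −0.38 without farnesol replicate 2. Its first exons overlap those of Arid4b on the opposite strand over 257 bases, at the far end from the 3′ tag.

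**Figure D2:**
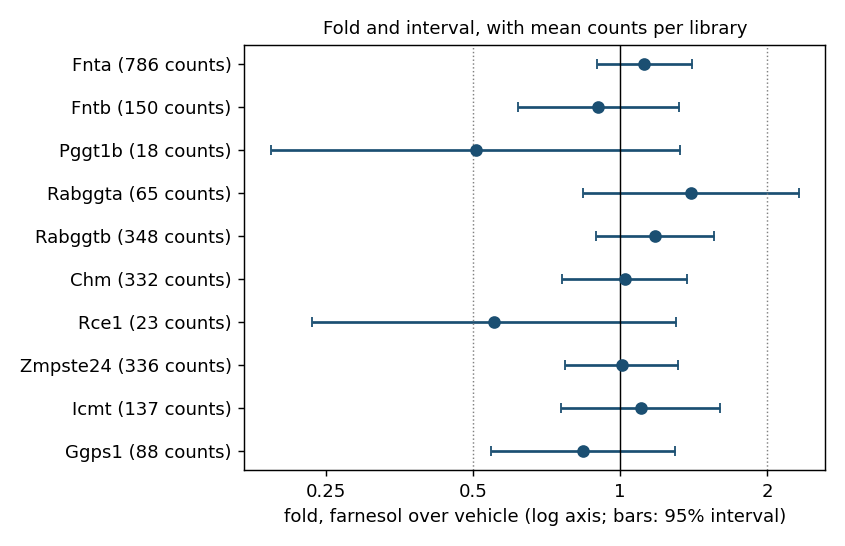
Fold of farnesol over vehicle for each gene (log axis), with 95% intervals as horizontal bars and the mean counts per library in brackets; dotted lines mark 0.5 and 2. Every interval includes 1, and the widest belong to Pggt1b and Rce1, the genes with fewest counts.

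The intervals set what these libraries could show. For 7 of the 10 members the 95% interval of the fold lay inside 0.5 to 2 (62.1% of all tested genes), and for 3 of them, Fnta, Chm and Zmpste24, inside 1.5-fold in either direction (28.7% of all tested genes). The 3 members whose intervals reached beyond 0.5 to 2 were Pggt1b, Rce1 and Rabggta, with mean counts of 17.8, 22.8 and 65.3, the lowest of the group. The intervals of Pggt1b and Rce1 held both 0.5 and 1, so these libraries do not separate a fold of 0.5 from no difference. In vehicle the coefficient of variation was 44.2% for Pggt1b and 46.8% for Rce1, above the 20.7% and 18.6% that counting alone gives. Vehicle replicate 2 was the high library: 3.34 against 1.53 and 1.78 CPM for Pggt1b, and 4.25 against 1.92 and 2.12 CPM for Rce1. In farnesol the coefficient was 14.5% for both genes, below the 28.5% and 24.5% of counting. A difference in spread between groups of 3 libraries was not tested.

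The 10 genes did not move as a block from library to library. Across the 6 libraries, the 45 pairs of members had Pearson correlations of log2 CPM from −0.99 to 0.97 with a median of 0.03, and 23 pairs were positive. These points share library, depth and scaling, and 6 libraries make such values imprecise. Pggt1b and Rce1 had the highest correlation (0.97), both with their peak in vehicle replicate 2 at 1.04 and 1.03 above their log2 means. Rabggta and Ggps1 had the lowest (−0.99): Rabggta was lowest in vehicle replicate 2 (−0.62) and highest in farnesol replicate 3 (0.55), where Ggps1 was at 0.34 and −0.37. Fntb and Chm ran together (0.88), both high in farnesol replicate 1 and low in farnesol replicate 3. The shared subunit Fnta correlated with Fntb at −0.07 and with Pggt1b at −0.42, and the subunits Rabggta and Rabggtb correlated at 0.03.

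**Figure D3:**
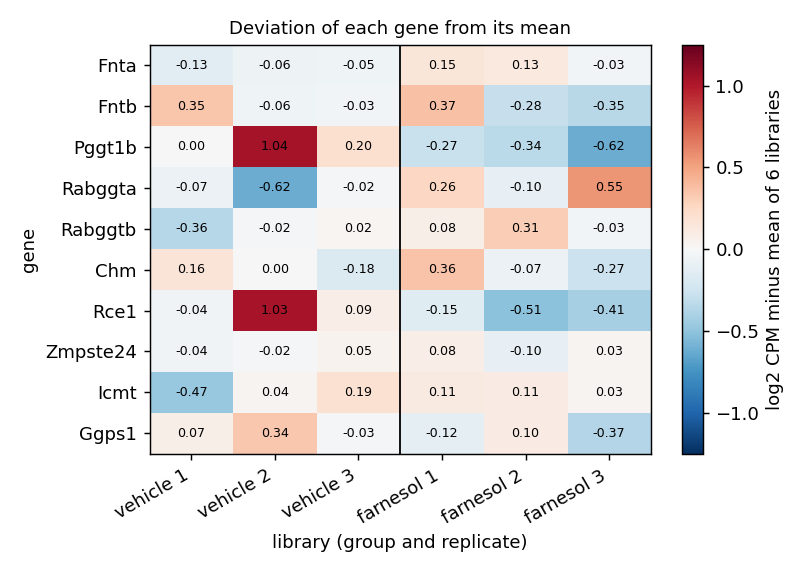
Deviation of log2 CPM from each gene's mean over the 6 libraries, as colour and number, with genes in rows and libraries in columns; the vertical line divides vehicle from farnesol. Vehicle replicate 2 holds the highest values of Pggt1b (1.04) and Rce1 (1.03).

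By library, 7 of the 10 genes lay above their mean in farnesol replicate 1 and 3 of 10 in farnesol replicate 3, with 4 to 5 of 10 in the other libraries. By the mean deviation over the 10 genes, vehicle replicate 2 was the highest library (0.17 on the log2 scale) and farnesol replicate 3 the lowest (−0.15). The high mean of vehicle replicate 2 rested on Pggt1b (1.04) and Rce1 (1.03), the members with fewest counts. In that library 5 of the 10 members lay above their mean. Leaving out farnesol replicate 1 gave a median log2 fold change of −0.10 over the 10 genes, with 4 of 10 above 0.

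Ratios of partner genes within a library need no scaling factor, and 7 were compared between the groups on log2 of count + 1, by exact two-sided permutation tests whose smallest possible p with 3 against 3 libraries is 0.1. None reached an adjusted p of 0.05, which this design does not allow. The beta subunit of geranylgeranyl transferase I over the shared alpha subunit, Pggt1b/Fnta, was −5.33, −4.33 and −5.22 in vehicle and −5.92, −5.97 and −6.10 in farnesol libraries. All farnesol ratios lay below all vehicle ratios, a mean difference of −1.03 (exact permutation p = 0.1, adjusted 0.233 over the 7 ratios), which was −0.72 without vehicle replicate 2. In CPM, Fnta was already fully separated upward and Pggt1b downward. The separation of this ratio and its exact permutation p were fixed by that, so the ratio is not a separate observation. For farnesyltransferase, Fntb/Fnta averaged −2.23 ± 0.27 in vehicle and −2.57 ± 0.34 in farnesol libraries (SD, n = 3; exact permutation p = 0.3, adjusted 0.42), and the groups overlapped. The competing beta subunits, Fntb/Pggt1b, stood at 2.73 ± 0.75 and 3.43 ± 0.30 (exact permutation p = 0.3, adjusted 0.42), again with overlap.

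In the Rab branch, Rabggtb/Rabggta averaged 2.54 ± 0.45 in vehicle and 2.29 ± 0.51 in farnesol libraries (SD, n = 3; exact permutation p = 0.6). The escort protein over the catalytic subunit, Chm/Rabggtb, averaged 0.05 ± 0.37 and −0.18 ± 0.35 (exact permutation p = 0.5). Both ratios overlapped between the groups, with adjusted p of 0.6 and 0.583. The Rabggtb/Rabggta difference of −0.24 was −0.00077 without vehicle replicate 2 and −0.0071 without farnesol replicate 3, and the Chm/Rabggtb difference of −0.23 was −0.026 without vehicle replicate 1.

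The other processing enzymes were compared as ratios to Rce1. Zmpste24/Rce1 was 3.90, 2.82 and 3.86 in vehicle and 4.15, 4.35 and 4.36 in farnesol libraries, and Icmt/Rce1 was 2.16, 1.56 and 2.69 against 2.87, 3.24 and 3.05. In both ratios all farnesol libraries lay above all vehicle libraries, by a mean of 0.76 and 0.91 (exact permutation p = 0.1 and adjusted 0.233 for each). In CPM, Rce1 was already fully separated downward, while Zmpste24 and Icmt overlapped between the groups. Both ratios share Rce1 as denominator, whose counts were 14 to 42 per library. The ratios are therefore not observations separate from each other or from that of Rce1. Without vehicle replicate 2 the differences were 0.40 and 0.62.

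**Figure D4:**
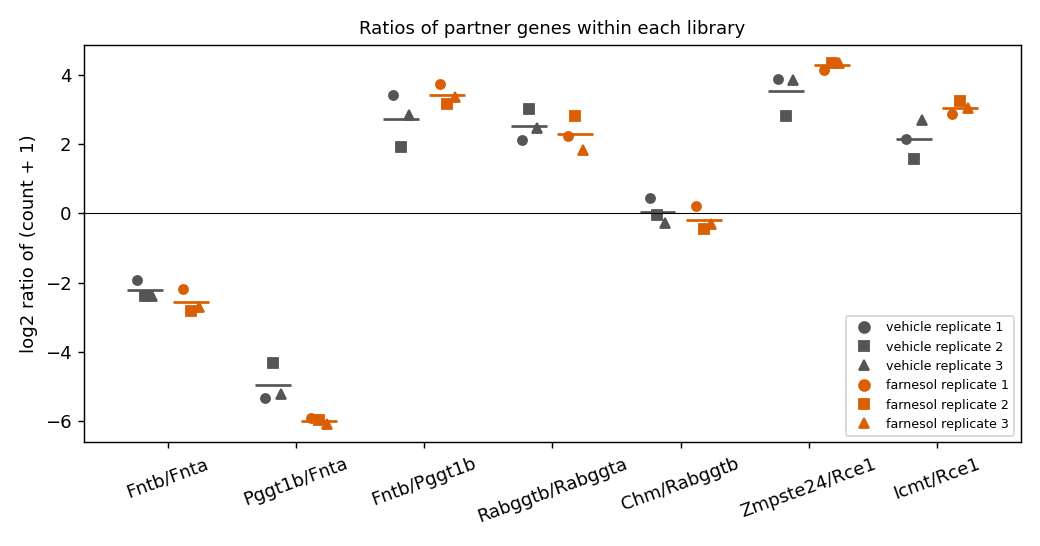
Log2 ratio of count + 1 for 7 pairs of partner genes in each library; grey marks vehicle, orange marks farnesol, and horizontal bars are means of 3 libraries. The groups do not overlap for Pggt1b/Fnta, Zmpste24/Rce1 and Icmt/Rce1, each of which holds Pggt1b or Rce1.

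Other genes of prenylation gave the setting. Of 24 genes in 4 lists, 21 were tested, 11 with a fold above 1 and 10 below, with a median log2 fold change of 0.03. In edgeR 0 of the 21 passed an adjusted p of 0.05 in either direction, and 1 of 21 had an unadjusted p under 0.05, near the 3.01% of all tested genes. That gene was Pcyox1, the lysosomal oxidase that breaks down prenylcysteines. It stood at 14.4, 25.2 and 20.6 CPM in vehicle and at 33.0, 21.0 and 32.5 CPM in farnesol libraries. Farnesol replicate 2 lay within the vehicle range, so the groups overlapped, and the fold was 1.44 (1.02 to 2.02; edgeR adjusted p = 1.0). Ptar1, a further prenyltransferase alpha subunit that partners Rabggtb, had a fold of 1.40 (0.777 to 2.52) and Pcyox1l, a relative of Pcyox1 at a mean of 11.5 counts, of 1.31 (0.367 to 4.67).

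Of the 4 genes listed for the supply or use of isoprenoid donors, 2 were tested and 0 passed in edgeR. Fdps, which makes farnesyl diphosphate, averaged 8.84 ± 1.31 CPM in vehicle and 8.04 ± 1.08 CPM in farnesol libraries (SD, n = 3; fold 0.911, 0.594 to 1.40). Fdft1, the squalene synthase that draws farnesyl diphosphate into sterol synthesis, averaged 33.5 ± 2.08 and 40.8 ± 2.68 CPM, without overlap of the groups (fold 1.22, 0.942 to 1.57). Over all tested genes 4.75% were fully separated upward. The isomerase genes Idi1 and Idi2 had means of 5.50 and 1.17 counts per library and did not pass the filter.

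All 9 genes that escort or extract prenylated proteins were tested, 4 with a fold above 1 and 5 below, and 0 passed in edgeR. Pde6d, a carrier with a pocket for prenyl groups, stood at 16.9, 17.1 and 16.8 CPM in vehicle and at 22.5, 19.0 and 21.4 CPM in farnesol libraries. The groups did not overlap, and the fold was 1.24 (0.908 to 1.69; edgeR adjusted p = 1.0). In this list of 9 genes 1 was fully separated upward, which was Pde6d, and 1 downward. Over all tested genes 4.75% were separated upward and 4.07% downward. Arhgdia, which extracts prenylated proteins from membranes, had a fold of 1.13 (0.831 to 1.55). Chml, the other Rab escort protein, had a 95% interval of 0.501 to 4.49 at a mean of 13.2 counts. Chml is the close relative of Chm, and reads shared by near-identical sequence, where present, could be assigned to either.

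Among 8 prenyltransferases of lipids and small molecules 7 were tested, 3 with a fold above 1 and 4 below, and 0 passed in edgeR. Cox10, which farnesylates haem for cytochrome oxidase, averaged 113 ± 3.45 and 123 ± 15.8 CPM (SD, n = 3; fold 1.09, 0.872 to 1.36). Coq2 of ubiquinone synthesis had a fold of 1.04 (0.730 to 1.49) and Trit1, which modifies transfer RNA, 0.896 (0.515 to 1.56).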

How the data were processed

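Libraries were made from 500 ng of gastrocnemius RNA using the QuantSeq kit of Lexogen (per the labels). The deposited tables hold raw read counts per gene symbol, 1 per library, as whole numbers with differing totals. Bowtie2, bedtools and mm10 are named in the submitters' processing notes; for versions, annotation, strand and filters nothing is given in the sources used here. Reads spanning introns can be lost, since Bowtie2 does not split them. Each table had 23282 features under 23238 symbols, and the 35 symbols on more than 1 line were summed. Libraries were grouped by title. The test was edgeR 4.0.16 in R 4.3.3: filterByExpr, TMM factors (0.905 to 1.14), estimateDisp and glmQLFit with robust fitting, glmQLFTest on group, threshold 0.05. Standard errors came from the log2 fold change divided by the root of the F statistic, with 95% intervals on the t distribution. Deviations used log2 CPM with a prior count of 2. A count of 0 would allow 3 counts, 0.251 to 0.310 CPM. The procedure was tested on simulated data, with changes set only in genes of at least 5 CPM, a level that Pggt1b and Rce1 did not reach. Every simulated gene had the same common dispersion (a coefficient of variation of 25.7% beyond counting), so recovery can differ for genes with another spread. At an adjusted p under 0.05 in edgeR the procedure recovered 44% of 2-fold and 26% of 0.5-fold changes (50 genes each). For 4-fold and 0.25-fold changes it recovered 100%. Positions and lengths are from GENCODE vM21 (mm10, 1-based); 96.3% of tested genes had a length. Members and lists were chosen with earlier results of these data known. The pathway genes named are, per list, those with the 4 smallest unadjusted p-values, and any that passed. Some genes this names are not reported here. Alternatives were DESeq2 1.42.0, limma-voom 3.58.1, other scaling and filters, a replicate block and each library left out.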

Additional observations from a re-analysis of the deposited data

How the results depend on the processing

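The number of members called was 0 under every alternative run: DESeq2, limma-voom, RLE factors, total counts, no filter, the filter of 5 CPM (which left 8 of the 10 members), the replicate block and each library left out. The median log2 fold change of the members was 0.02 in the full set, 0.01 to 0.09 under the alternatives that keep all libraries, and −0.098 to 0.076 with a library left out, lowest without farnesol replicate 1. No member changed direction while all libraries were kept. With a library left out, Zmpste24 ran from −0.028 (without farnesol replicate 1) to 0.061, Icmt from −0.033 (without vehicle replicate 1) to 0.28, and Chm from −0.17 (without farnesol replicate 1) to 0.16. Zmpste24 was also below 0 without vehicle replicate 1 or farnesol replicate 3, and Chm without vehicle replicate 3. None of these values passed in either direction, and the cause was not tested. Over all genes, edgeR called 13 without the filter and 3 without vehicle replicate 2, against 0. With the replicate number as a block the members' median was 0.01 and 0 were called. The labels do not say that equal numbers share anything. Deviations of same-numbered libraries correlated at 0.04, 0.06 and −0.02, and those of differently numbered libraries at −0.07 to 0.04. With 3 libraries per group these values cannot decide whether the numbers pair the libraries. With libraries paired by number the Pggt1b/Fnta difference was −1.03, with an exact sign-flip p of 0.25, the smallest that 3 pairs allow. The full separation of the groups fixed this p as well. The 7 ratios had the same sign with prior counts of 0.5 and 2. With a library left out, Pggt1b/Fnta ran from −1.22 to −0.72, Fntb/Fnta from −0.54 to −0.18, Fntb/Pggt1b from 0.29 to 1.04, Zmpste24/Rce1 from 0.40 to 0.95 and Icmt/Rce1 from 0.62 to 1.19, while Rabggtb/Rabggta (−0.51 to −0.00077) and Chm/Rabggtb (−0.43 to −0.026) came close to 0. Depth limits Pggt1b and Rce1 most, at 9 to 42 counts per library.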
